A study of Mus musculus with 13 samples.

Results

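The genes described here are 3 Ly6 antigens (Ly6a, Ly6c1 and Ly6e), the angiopoietin Angpt4, the lipid chaperone Fabp4 and 5 endothelial markers (Pecam1, Cldn5, Flt1, Kdr and Cdh5) in reporter-sorted dorsal root ganglion neurons of the mouse. They are 10 of 41388 genes in the count tables, and all 10 were among the 15406 genes that passed the filter on low counts. Ly6a and Angpt4 were selected on their measured counts, which were already known to be higher at the L6S1 level in these libraries, and the other genes were taken to ask whether that pair follows the endothelial markers. The levels of Ly6a and Angpt4 between the spinal levels are therefore given as a description. Where counts of called genes below include either of them, the choice fixed that outcome and the call is no evidence.

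All libraries came from mice 3 months old of strain C57BL/6 that carry Ret-EGFP. The series text describes EGFP placed in the Ret locus of heterozygotes, while the sample labels write the genotype as Tg(Ret-EGFP)SJ. Ret is the signalling receptor for the GDNF family of neurotrophic ligands. Green cells were sorted by flow cytometry from ganglia pooled over 2 to 9 mice per library. The groups were male L6S1 with 4 libraries from 20 mice (lumbar segment 6 and sacral segment 1, replicates A, D, E and F), male L345 with 3 libraries from 11 mice (lumbar segments 3, 4 and 5), female L6S1 with 3 libraries from 16 mice and female L345 with 3 libraries from 14 mice (A, B and C each). A library is a pool, so spread between libraries is spread between pools of mice.

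Ly6 proteins are small cell-surface molecules with a three-finger fold held by disulfide bonds, and most are tethered to the membrane by a lipid anchor. Ly6a encodes Sca-1, known from blood stem cells and from endothelium, and Ly6c1 is expressed on capillary endothelium of the brain and on some leukocytes. Angpt4 encodes a secreted ligand of the endothelial receptor Tek, and Flt1 and Kdr are receptors for vascular endothelial growth factors. Pecam1 and Cdh5 encode adhesion molecules and Cldn5 a tight-junction protein of endothelium, while Fabp4 encodes a fatty acid carrier of adipocytes and capillary endothelium.

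In the GRCm38 annotation the 3 Ly6 genes lie near each other on chromosome 15, Ly6a (ENSMUSG00000075602) at chr15:74994877-74998031 and Ly6c1 (ENSMUSG00000079018) at chr15:75044018-75048830 on the minus strand, and Ly6e (ENSMUSG00000022587) at chr15:74955051-74959905 on the plus strand. Angpt4 (ENSMUSG00000027460) lies at chr2:151911210-151945337 on the plus strand and Fabp4 (ENSMUSG00000062515) at chr3:10204347-10208576 on the minus strand. No annotated exon of the 10 genes overlaps another gene. Flt1 and Kdr both lie on chromosome 5, Pecam1 on chromosome 11, Cldn5 on chromosome 16 and Cdh5 on chromosome 8.

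The first 120 coding bases of Ly6a and Ly6c1 are shown because reads from such stretches can be hard to place between the pair. Capitals mark bases that differ between the genes. Positions run from the A of the start codon in GENCODE transcripts, and both genes lie on chromosome 15.
Ly6a: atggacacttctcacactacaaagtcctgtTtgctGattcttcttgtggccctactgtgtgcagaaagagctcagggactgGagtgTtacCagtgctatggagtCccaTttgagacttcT
Ly6c1: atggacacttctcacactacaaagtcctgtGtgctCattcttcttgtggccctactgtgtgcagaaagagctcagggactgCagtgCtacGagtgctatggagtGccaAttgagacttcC
In this stretch 112 of 120 bases were identical (93.3%), and over the whole aligned coding sequences 66.4% were. Of all 50-base words in annotated Ly6a transcripts, 19.0% also occurred in transcripts of another gene, mostly Ly6c1 and Ly6i, and for Ly6c1 the share was 32.8%, mostly with Ly6c2. Ly6c2 and Ly6i themselves held at most 0.233 and 0.265 CPM in any library. Ly6e, Angpt4, Fabp4, Cldn5, Kdr and Cdh5 shared no such word with another gene. How multi-mapping reads were placed is not given in the sources used here, so part of the Ly6a and Ly6c1 counts could have moved between these genes.

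Promoter windows from 250 bases before to 50 after an annotated start were found in the RefSeq table (GRCm38.p6) for Ly6c1, Angpt4, Cldn5, Flt1 and Kdr. Ly6a, Ly6e, Fabp4, Pecam1 and Cdh5 were not in it. The windows of Angpt4 and of Ly6c1 are shown because these 2 genes differed most between the male groups among the genes with a window. That of Flt1 is shown because it had the highest Pearson r with Angpt4 among the 5 endothelial markers over all 13 libraries (0.454). Without male L6S1 D and E that r was -0.26, and Flt1 was not compared with Ly6c1. Capitals mark TATAAA.
Angpt4 chr2:151910957-151911256, plus strand: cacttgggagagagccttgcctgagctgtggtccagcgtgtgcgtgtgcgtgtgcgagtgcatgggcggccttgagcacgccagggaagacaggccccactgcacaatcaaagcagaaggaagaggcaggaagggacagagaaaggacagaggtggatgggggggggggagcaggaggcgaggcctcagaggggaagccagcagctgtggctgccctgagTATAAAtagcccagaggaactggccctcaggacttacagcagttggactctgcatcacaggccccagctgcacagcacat
Ly6c1 chr15:75048788-75049087, minus strand: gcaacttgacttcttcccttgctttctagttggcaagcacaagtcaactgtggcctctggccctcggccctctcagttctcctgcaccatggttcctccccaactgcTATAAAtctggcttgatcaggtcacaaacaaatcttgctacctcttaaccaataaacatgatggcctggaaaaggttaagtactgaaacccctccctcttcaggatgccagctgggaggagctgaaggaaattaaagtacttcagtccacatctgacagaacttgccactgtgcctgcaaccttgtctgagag
Flt1 chr5:147725962-147726261, minus strand: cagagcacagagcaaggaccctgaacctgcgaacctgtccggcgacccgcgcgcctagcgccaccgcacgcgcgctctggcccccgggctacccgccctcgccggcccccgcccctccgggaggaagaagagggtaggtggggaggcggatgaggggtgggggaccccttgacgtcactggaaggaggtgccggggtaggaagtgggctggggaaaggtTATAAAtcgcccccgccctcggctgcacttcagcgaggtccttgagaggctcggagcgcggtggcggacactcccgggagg
TATAAA began 30 bases before the start in Angpt4, 31 bases before it in Flt1 and 143 bases before it in Ly6c1, and 13.6% of 32851 windows of this length held it on either strand. The interferon-response core, GAAA repeated after any 2 bases (3.44% of windows), the STAT core TTCNNNGAA (8.30%) and the ETS core CCGGAAG (8.86%) were in none of the 6 windows of the 5 genes, on either strand. The Angpt4 window held 7 CpG dinucleotides, which was also the median of all windows, against 1 in the Ly6c1 window shown and 29 in the Flt1 window. Ly6c1 has another window, chr15:75048614-75048913, which held 0 CpG dinucleotides and no TATAAA. These matches describe letters in a window and show no binding.

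Total counts ran between 13030096 and 27011995 per library, so 3 counts, the limit set by a count of 0, correspond to 0.111 to 0.230 CPM. Values below are CPM, read counts scaled to a common library size, after TMM factors, which correct for a few abundant genes taking a larger share. Libraries male L6S1 D and E stood apart from the other 11 on the first principal component, which held 40.8% of the variance, at 73.1 and 121 against -52.1 to 21.5. Both also had the lowest TMM factors, 0.925 and 0.796. Ret, the gene that the reporter is named after, was lower in D and E (154 and 87.2 CPM) than in the other 11 libraries (181 to 221 CPM). In both D and E, 2737 of 15406 genes (17.8%) were above all other 11 libraries. The male differences between the levels of the 10 genes are also given without D and E. The submitters' processing notes differ between male and female libraries, so sex and processing cannot be told apart.

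Among the Ly6 antigens Ly6a had the highest ratio of highest to lowest library, 13.3, close to 12.8 for Ly6c1, with 7.96 for Ly6e. Male L6S1 libraries A, D, E and F held 29.8, 50.1, 97.1 and 22.2 CPM, against 7.29, 7.54 and 9.78 CPM in male L345 A, B and C. Female L6S1 A, B and C held 10.1, 8.96 and 16.0 CPM, against 16.3, 10.6 and 14.1 CPM in female L345. Every male L6S1 library was thus above all 9 other libraries, and the female groups overlapped. The log2 fold change of L6S1 over L345 was 2.60 (SE 0.45) in males and -0.23 (SE 0.44) in females. In males it was 1.65 without D and E.

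Ly6e encodes a broadly expressed Ly6 protein that is induced by interferon and is known to limit coronavirus entry. It held 38.4, 110.1, 148 and 50.8 CPM in male L6S1 A, D, E and F, against 19.0, 23.9 and 26.6 CPM in male L345. Female L6S1 libraries held 18.6, 21.6 and 30.5 CPM, against 36.9, 25.8 and 36.0 CPM in female L345. As with Ly6a, all 4 male L6S1 libraries lay above the other 9, and the female groups overlapped. In males L6S1 over L345 gave a log2 fold change of 1.90 (SE 0.41), which did not pass edgeR's quasi-likelihood test with Benjamini-Hochberg adjustment over all genes (adjusted p = 0.0779). In females it gave -0.48 (SE 0.41, adjusted p = 1.00). Without D and E the male value was 0.94.

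Ly6c1 showed D and E apart and A and F close to the rest. Male L6S1 A, D, E and F held 7.34, 29.9, 46.6 and 9.91 CPM, against 3.64, 3.82 and 7.10 CPM in male L345. Female L6S1 libraries held 6.66, 6.50 and 12.4 CPM, against 11.2, 6.79 and 10.3 CPM in female L345. The male groups did not overlap, but A and F lay within the range of the female libraries. L6S1 over L345 gave a log2 fold change of 2.26 (SE 0.56, edgeR adjusted p = 0.131) in males and 0.81 without D and E. In females it was -0.15 (SE 0.55).

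Angpt4 had the widest relative spread of the 10 genes, 44.3-fold between the lowest and the highest library. Male L6S1 A, D, E and F held 3.65, 22.5, 24.7 and 6.19 CPM (82, 477, 422 and 170 counts), against 1.12, 1.58 and 1.22 CPM in male L345 (15, 34 and 25 counts). Female L6S1 libraries held 2.82, 1.32 and 2.45 CPM (64, 22 and 51 counts), against 1.49, 0.557 and 1.44 CPM in female L345 (28, 11 and 35 counts). All 4 male L6S1 libraries were above the other 9, D and E by far the most, and 2 of 3 female L6S1 libraries were above all of female L345. The log2 fold change was 3.43 (SE 0.63) in males and 0.92 (SE 0.63) in females, and the male value was 1.89 without D and E. Angpt4 alone of the 10 genes had an estimate above 0.5 in females.

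Fabp4 pointed in opposite directions in the sexes. Male L6S1 A, D, E and F held 2.49, 4.76, 4.85 and 1.09 CPM, against 0.669, 1.30 and 0.633 CPM in male L345. Female L6S1 libraries held 1.06, 0.902 and 0.384 CPM, against 3.29, 1.77 and 1.64 CPM in female L345. The male groups overlapped through library F, while all 3 female L6S1 libraries lay below all 3 of female L345, as in 3.86% of all genes tested. L6S1 over L345 gave 1.89 on the log2 scale (SE 0.54, edgeR adjusted p = 0.137) in males, and 1.01 without D and E. In females it gave -1.51 (SE 0.57), with an unadjusted edgeR p of 0.0175 and an adjusted p of 1.00. Counts were low, 8 to 101 per library.

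**Figure D1:**
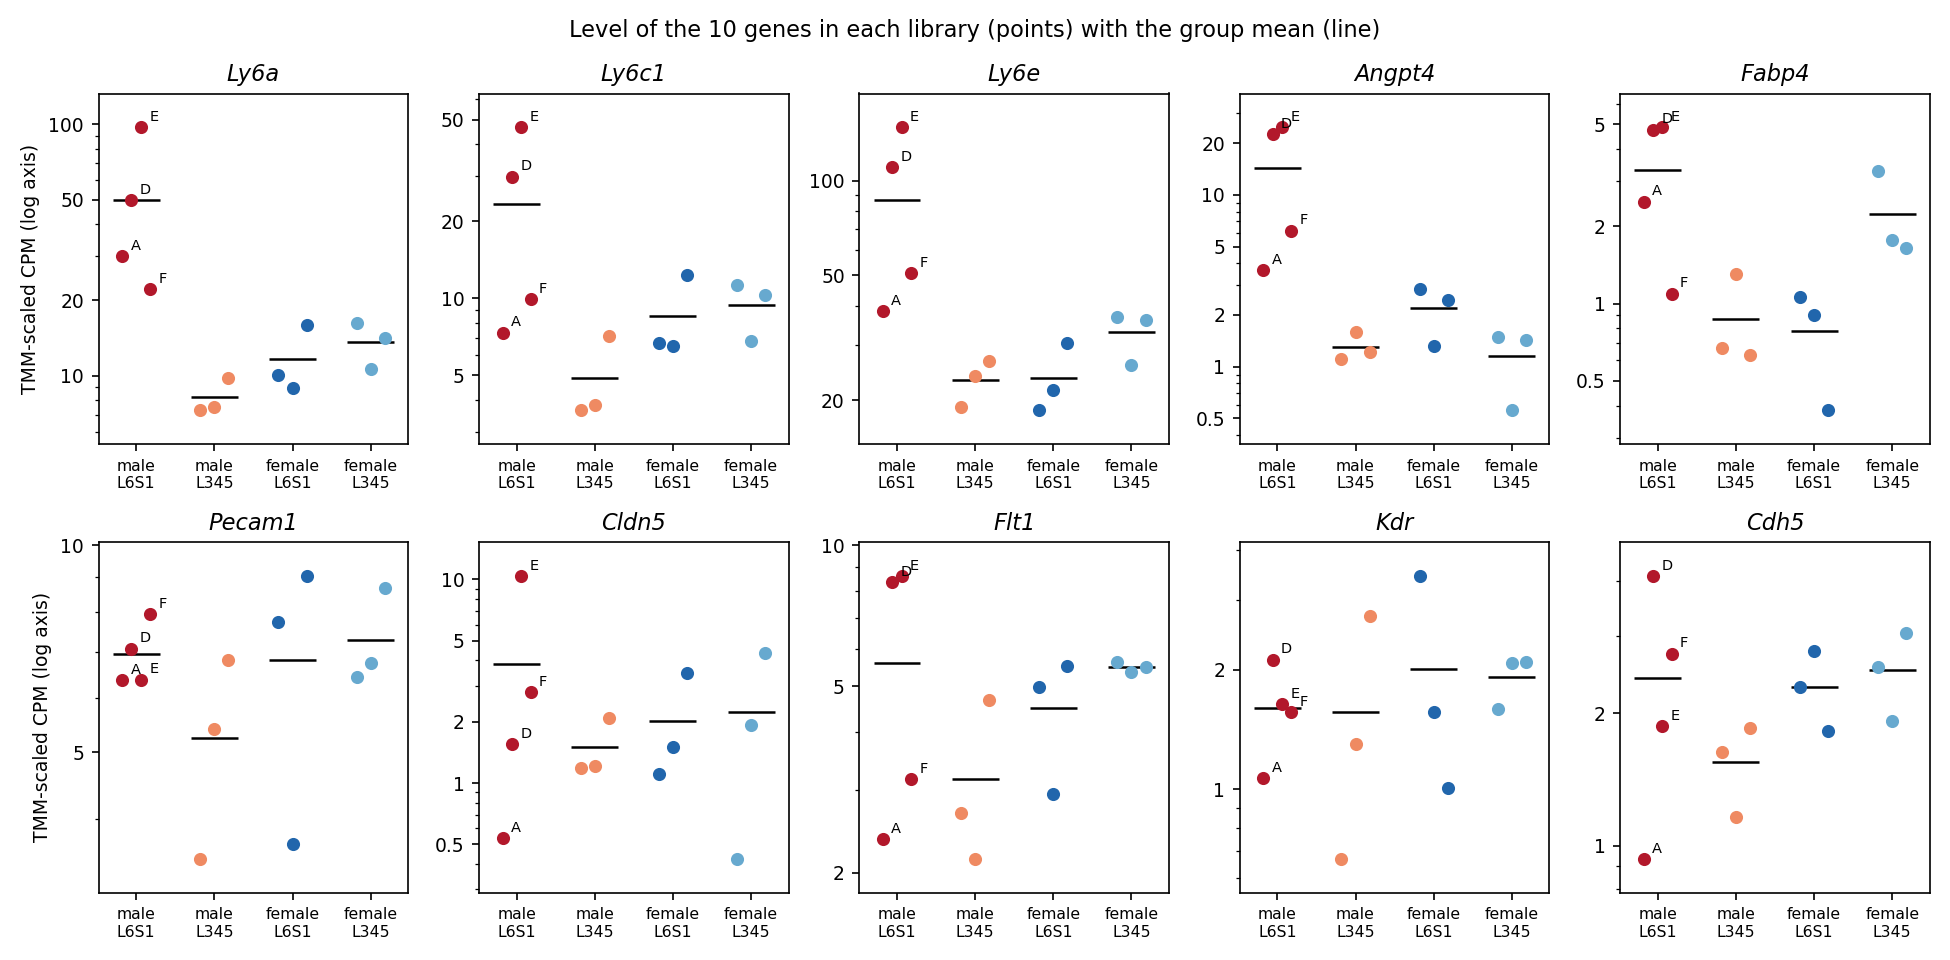
TMM-scaled CPM (log axis, scaled per panel) of the 10 genes in each library, with points for libraries, a line for the group mean, and letters naming the 4 male L6S1 replicates. In the panel of Ly6a, male L6S1 libraries sit between 22.2 and 97.1 CPM, above all other libraries, whereas in the panel of Pecam1 they sit between 6.36 and 7.94 CPM, within the range of the others.

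The 5 endothelial markers did not separate the groups in this way. Pecam1 held 6.36, 7.07, 6.37 and 7.94 CPM in male L6S1 A, D, E and F, against 3.50, 5.40 and 6.81 CPM in male L345, and 3.67 to 9.02 CPM in female L6S1 against 6.42 to 8.66 CPM in female L345. Its level in D and E was thus that of A and F. Kdr held 1.07, 2.12, 1.64 and 1.57 CPM in male L6S1, against 0.669, 1.30 and 2.73 CPM in male L345, and the groups of both sexes overlapped. Cdh5 held 0.935, 4.10, 1.87 and 2.73 CPM in male L6S1, against 1.64, 1.16 and 1.85 CPM in male L345. Here D was the highest library and E was among the rest.

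Cldn5 stood apart in E alone. It held 0.534, 1.56, 10.4 and 2.81 CPM in male L6S1 A, D, E and F, against 1.19, 1.21 and 2.09 CPM in male L345, with 1.10 to 3.45 CPM in female L6S1 and 0.424 to 4.35 CPM in female L345. Flt1 was the endothelial marker of the 5 that was highest in both D and E. It held 2.36, 8.34, 8.60 and 3.17 CPM in male L6S1, against 2.68, 2.14 and 4.67 CPM in male L345, with 2.95 to 5.52 CPM in female L6S1 and 5.37 to 5.62 CPM in female L345. Libraries A and F of male L6S1 were within the range of male L345 for Flt1, although both were above it for Ly6a and Angpt4.

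In males the endothelial log2 fold changes were 0.40 (SE 0.32) for Pecam1, 1.33 (SE 0.83) for Cldn5, 0.82 (SE 0.44) for Flt1, 0.01 (SE 0.48) for Kdr and 0.64 (SE 0.43) for Cdh5, with edgeR adjusted p between 0.248 and 0.994. Without D and E that of Flt1 was -0.20 and that of Kdr -0.28, while Pecam1, Cldn5 and Cdh5 had 0.43, 0.15 and 0.25. With library totals in place of TMM, which moved the median of all genes in males by -0.12, Kdr had -0.13 and the other 9 genes kept their sign. With the replicate block, which leaves 1 male pair, Cldn5 had -1.14, Cdh5 -0.80, Flt1 -0.17, Kdr 0.68 and Pecam1 0.87, so Cldn5, Cdh5 and Flt1 changed sign. In females the 5 estimates lay between -0.29 and 0.07.

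**Figure D2:**
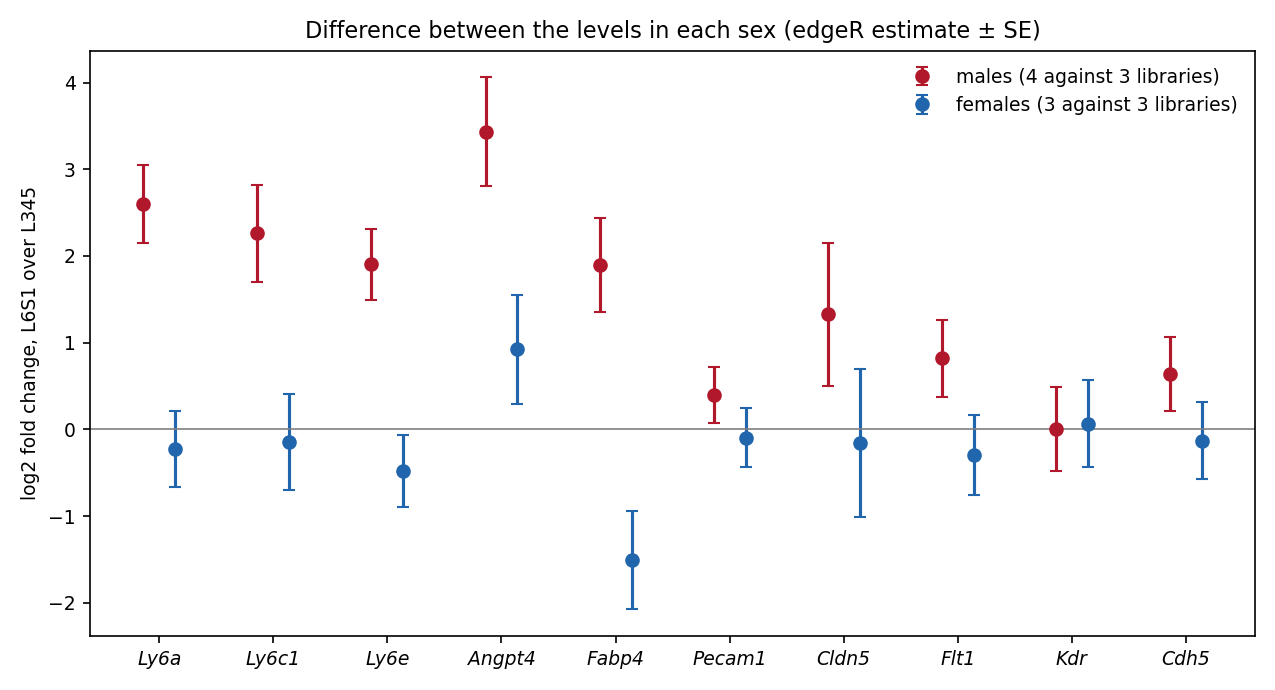
Log2 fold change of L6S1 over L345 for the 10 genes, with bars for 1 SE, in males (red, 4 against 3 libraries) and females (blue, 3 against 3). The male estimates of the Ly6 antigens, Angpt4 and Fabp4 lie between 1.89 and 3.43 and those of the 5 endothelial markers between 0.01 and 1.33, while the female estimates lie between -1.51 and 0.92.

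In males 2 of the 10 genes, Ly6a and Angpt4, were past an adjusted p of 0.05 in edgeR, where 0.221% of the genes tested were. The choice of genes used this contrast, so nothing is read from the count. It was 5 with DESeq2, which also called Ly6c1, Ly6e and Fabp4, and which called 3.36% of all genes it tested. With the replicate letters as a block, the estimates were 2.04 for Ly6a and 1.71 for Angpt4 from the single male pair that shares a letter. The count was 0 without D and E, 0 without D alone, 1 (Ly6a) without E, and 0 without any 1 of the 3 male L345 libraries. These fits called 0.0253% to 0.125% of all genes tested. Without A the count was 5, where 20.5% of all genes tested were called. All male L6S1 libraries were above all male L345 libraries for 4 of the 10 genes (Ly6a, Ly6c1, Ly6e and Angpt4), and for 9.2% of genes tested. For Ly6a and Angpt4 the choice of genes used this contrast, so their part in that count is no evidence.

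In females none of the 10 was called by edgeR, where 0.0195% of genes were, and none by DESeq2. At an unadjusted p under 0.05 there was 1, Fabp4, beside 2.25% of all genes tested. None of the 10 had all female L6S1 libraries above all female L345 libraries, which 4.89% of genes tested had. Averaged over the sexes edgeR called 1, Angpt4 (2.18, SE 0.44), with 0.448% of genes called, and DESeq2 called 2, with 0.706% of genes called. The choice of Ly6a and Angpt4 used this contrast too, so nothing is read from these counts. That call ended with the block, where the estimate was 1.32, and without D and E, where it was 1.41. It also ended without any 1 library other than male L6S1 A or F. The averages of the others were 1.18 (SE 0.31, and 0.71 without D and E) for Ly6a, 1.06 for Ly6c1, 0.71 for Ly6e, 0.19 for Fabp4 and 0.04 to 0.58 for the endothelial markers.

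The difference between the sexes in the spinal-level difference was tested as an interaction, and none of the 15406 genes passed (0%). The estimates, male minus female, were 2.83 (SE 0.62) for Ly6a, 2.41 (SE 0.77) for Ly6c1, 2.39 (SE 0.58) for Ly6e, 2.51 (SE 0.86) for Angpt4 and 3.40 (SE 0.78) for Fabp4. Without D and E they were 1.88 for Ly6a, 0.96 for Ly6c1, 1.42 for Ly6e, 0.98 for Angpt4 and 2.51 for Fabp4. With the replicate block they lay between 0.77 for Angpt4 and 3.44 for Fabp4. With all libraries each of these 5 had an unadjusted edgeR p under 0.05, as did 11.7% of all genes tested. Their adjusted p was 0.409, and DESeq2 called none. Ly6a and Angpt4 were selected for higher counts at L6S1, which enter this contrast, so nothing is read from their p. The 5 endothelial markers had estimates between -0.06 and 1.48 with adjusted p between 0.428 and 0.975. Male against female libraries averaged over the levels gave 0 calls among the 10 genes in edgeR and in DESeq2, with 0.0779% of genes called by edgeR, 0.0389% higher in males and 0.0389% lower. At an unadjusted p under 0.05, which 6.10% of all genes tested had, there were 3, Angpt4 (1.43, SE 0.43), Ly6e (0.69, SE 0.29) and Ly6a (0.68, SE 0.30). Without D and E these were 0.66 for Angpt4, 0.20 for Ly6e and 0.20 for Ly6a. The L6S1 counts enter this contrast too, so nothing is read from the p of Ly6a and Angpt4.

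Whether Ly6a and Angpt4 follow the endothelial markers was also read within each library, as counts per count of the 5 markers together, which needs no scaling between libraries. Both were selected for higher counts at L6S1, so a higher ratio at that level follows in part from the choice and is given as a description. Ly6a had 2.65, 2.16, 3.36 and 1.22 reads per endothelial read in male L6S1 A, D, E and F, against 0.754, 0.672 and 0.539 in male L345. The ratio was 0.515 to 0.767 in female L6S1, against 0.590 to 0.981 in female L345. The 4 male L6S1 libraries were all above the other 9, and A was above D. For Angpt4 the ratio was 0.324, 0.970, 0.854 and 0.340 in male L6S1, against 0.115, 0.141 and 0.0670 in male L345, with 0.106 to 0.144 in female L6S1 and 0.0309 to 0.0895 in female L345. The sum of the 5 markers was 11.3 to 28.9 CPM in male L6S1, against 9.67 to 18.2 CPM in male L345, with 12.5 to 20.8 CPM in female L6S1 and 16.6 to 23.7 CPM in female L345, so the groups overlapped. In sorted pools, fewer cells of a type and less RNA per cell cannot be told apart.

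**Figure D3:**
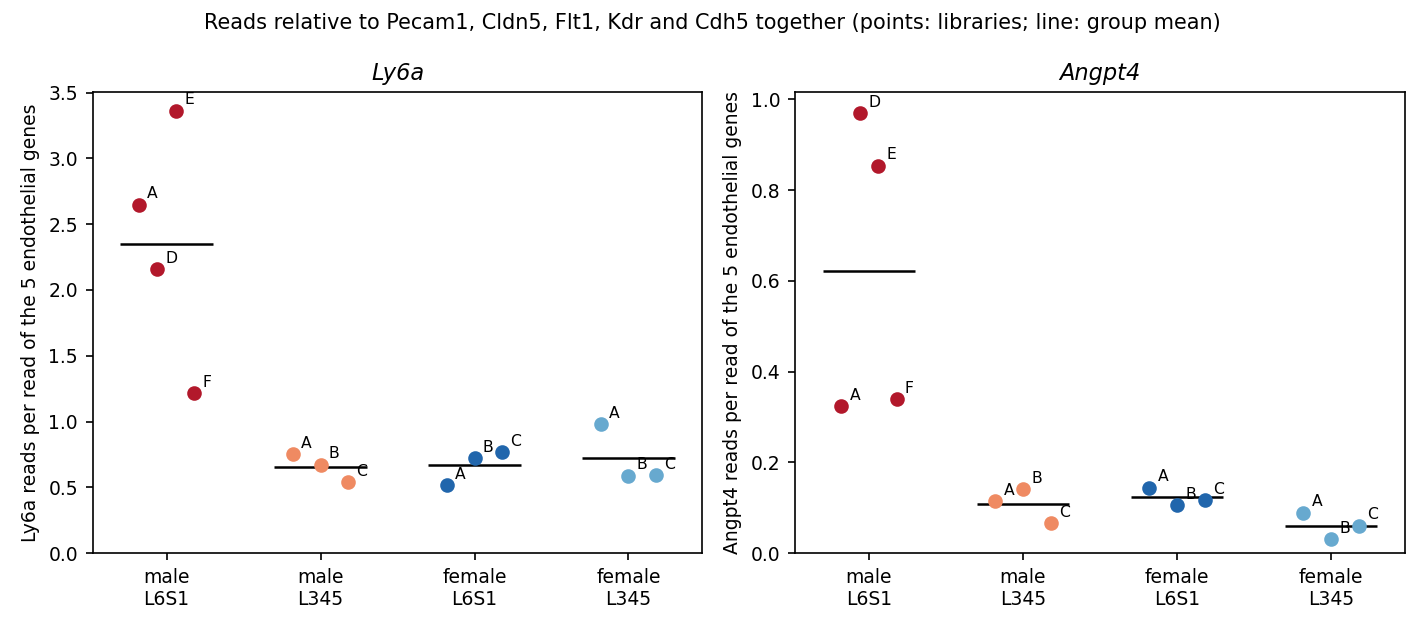
Counts of Ly6a (left) and Angpt4 (right) per count of Pecam1, Cldn5, Flt1, Kdr and Cdh5 together, with points for libraries, their replicate letters and a line for the group mean. Male L6S1 libraries lie between 1.22 and 3.36 for Ly6a and between 0.324 and 0.970 for Angpt4, above all other libraries, whose highest values are 0.981 and 0.144. Both genes were selected for higher counts at L6S1.

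Correlations of log2 CPM were computed for 17 pairs, Ly6a and Angpt4 with each other and with the 8 other genes. Since D and E stand apart, r is given over the other 11 libraries. Ly6a and Ly6e moved together (Pearson r 0.857, 2-sided permutation adjusted p = 0.0141, Spearman rho 0.864 with adjusted p = 0.0195, and r 0.828 after leaving out the 2 libraries farthest from the median of Ly6e). An r with Ly6a at or above that of Ly6e was held by 0.0909% of 15405 genes over these libraries. No other of the 17 pairs passed by Pearson r over the 11 libraries. By Spearman rho, Ly6a with Ly6c1 also passed (rho 0.818, permutation adjusted p = 0.0281). Ly6a had r of 0.691 with Ly6c1 (adjusted p = 0.155), 0.660 with Angpt4 (0.155), 0.392 with Fabp4 (0.612) and 0.545 with Pecam1 (0.319), and -0.11 to 0.07 with Cldn5, Flt1, Kdr and Cdh5. Angpt4 had r between -0.26 and 0.38 with the 5 endothelial markers. Among themselves the 5 markers had a median r of 0.437 over these libraries.

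Over all 13 libraries 6 of the 17 pairs passed by Pearson r, Ly6a with Angpt4, Ly6c1, Ly6e and Fabp4, and Angpt4 with Ly6c1 and Ly6e. Of 15405 genes, 14.2% had an r with Ly6a at or above that of Fabp4. The share was 1.91% for Angpt4, 0.779% for Ly6c1 and 0.0195% for Ly6e. For r with Angpt4 it was 5.80% at Ly6c1 and 1.78% at Ly6e. Such shares were not computed within either sex. Of the 10 pairs with an endothelial marker 0 passed. By Spearman rho, Angpt4 with Ly6c1 did not pass (rho 0.626, permutation adjusted p = 0.0616). Ly6a and Angpt4 were both selected for higher levels at L6S1, so a correlation between them over libraries of both levels follows in part from that choice. Over the 11 libraries without D and E, Angpt4 had r of 0.340 with Ly6c1 and 0.528 with Ly6e, and neither passed. Within the 5 male libraries left without D and E, r was 0.765 and 0.960, too few libraries for a correlation to be tested. Within the 7 male libraries, D and E included, 7 pairs passed by Pearson r in exact permutation tests, these 6 and Angpt4 with Fabp4. Again 0 of the 10 pairs with an endothelial marker passed. The pairs of Ly6a and Angpt4 with Fabp4 did not pass by rho (exact permutation adjusted p = 0.0829 and 0.0675). Within the 6 female libraries 1 pair passed, Ly6a with Flt1 (r 0.717 with exact permutation adjusted p = 0.0236, rho 1 with adjusted p = 0.0472, and r 0.926 after leaving out the 2 libraries farthest in Flt1). When deviations from the group means were used, Flt1 passed with both Ly6a and Angpt4. After leaving out the 2 libraries farthest in Flt1, male L6S1 A and E, r of the deviations was 0.742 with Ly6a and 0.611 with Angpt4. Levels not centred on the group means gave 0.571 with Ly6a and 0.454 with Angpt4 over all 13 libraries, and neither passed. After leaving out the 2 libraries farthest in Flt1, here male L345 B and male L6S1 A, the levels gave 0.732 and 0.558. Over the 11 libraries without D and E the levels gave 0.07 and -0.26. Deviations without D and E were not computed, so the part of centring and that of the libraries used were not told apart.

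**Figure D4:**
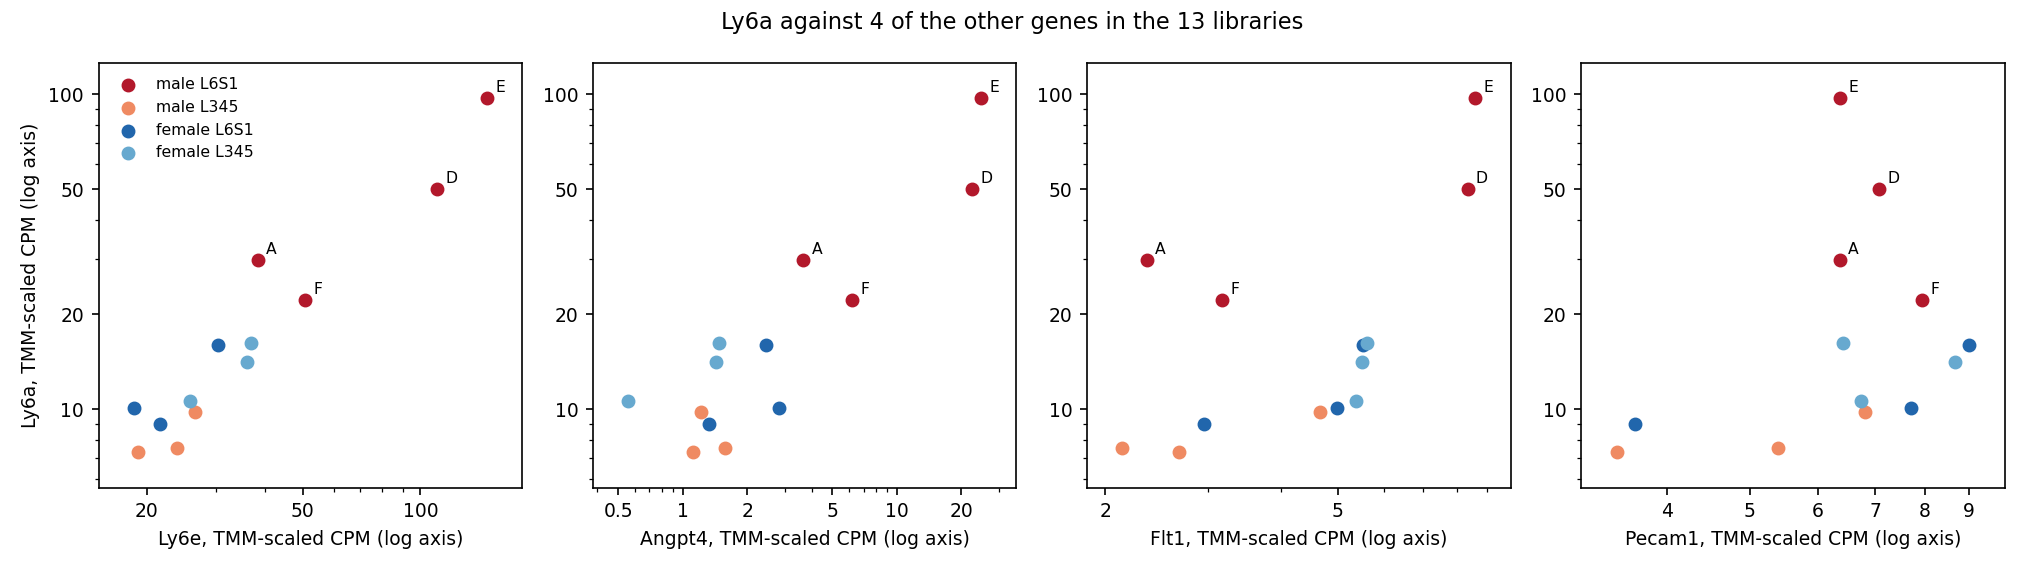
Ly6a against Ly6e, Angpt4, Flt1 and Pecam1 in the 13 libraries (TMM-scaled CPM, log axes), with letters for the 4 male L6S1 replicates. The points of Ly6a and Ly6e lie along 1 band (r 0.857 without D and E), whereas A and F stand above the other libraries at the same Flt1 and all 4 stand above them at the same Pecam1.

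Per kilobase of exon, Ly6a had the highest mean level over the 13 libraries (19.1 CPM per kb, SD 20.9). Ly6e (11.9, SD 10.3), Ly6c1 (7.44, SD 7.28), Fabp4 (3.00, SD 2.37), Angpt4 (2.34, SD 3.51), Cldn5 (1.77, SD 1.86), Pecam1 (1.06, SD 0.267), Cdh5 (0.553, SD 0.211), Flt1 (0.411, SD 0.181) and Kdr (0.242, SD 0.102) followed, in CPM per kb. Of the 9 neighbouring pairs in this order, only Pecam1 and Cdh5 differed by more than the larger of their SDs. The place of Angpt4 came from male L6S1 (6.10 CPM per kb), since in male L345, female L6S1 and female L345 it had 0.559, 0.941 and 0.497 CPM per kb, below Cldn5 and Pecam1 in each. The widest ratio of highest to lowest library among the endothelial markers was 24.5 for Cldn5, and the narrowest was 2.58 for Pecam1.

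In both D and E, 6 of the 10 genes were above the other 11 libraries, namely Ly6a, Ly6c1, Ly6e, Angpt4, Fabp4 and Flt1, beside 17.8% of all genes tested. Ly6a and Angpt4 were selected for higher counts at L6S1, the level of D and E. Their part in this count follows in part from that choice and is no evidence. Of 20 endothelial genes, a list that holds the 5 markers and Ly6c1, 4 were above the other 11 in both (Flt1, Esam, Emcn and Ly6c1). The gene with the highest mean CPM, Cd34, a surface sialomucin, held 91.9 CPM in D and 144.7 CPM in E, against 82.3 to 177 CPM in the other 11. Egfl7, a secreted endothelial factor, held 25.2 and 53.4 CPM, against 8.85 to 29.8 CPM, and was above them in E only. Emcn, an endothelial sialomucin, held 20.9 CPM in D and 40.9 CPM in E, against 5.06 to 15.5 CPM in the other 11, and Esam, an adhesion molecule, held 20.6 and 30.4 CPM, against 7.81 to 18.8 CPM. Tek, the receptor of angiopoietins, held 2.45 and 1.23 CPM, against 1.26 to 4.76 CPM, and the 20 genes summed to 245 and 377 CPM. The sums ran between 195 and 377 CPM in male L6S1, against 198 to 214 CPM in male L345, and between 155 and 266 CPM in female L6S1, against 190 to 271 CPM in female L345. None of the 20 passed between the levels in males or in females, with a median log2 fold change of 0.67 in males and -0.14 in females, where the median of all genes was 0.04 and 0.00.

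**Figure D5:**
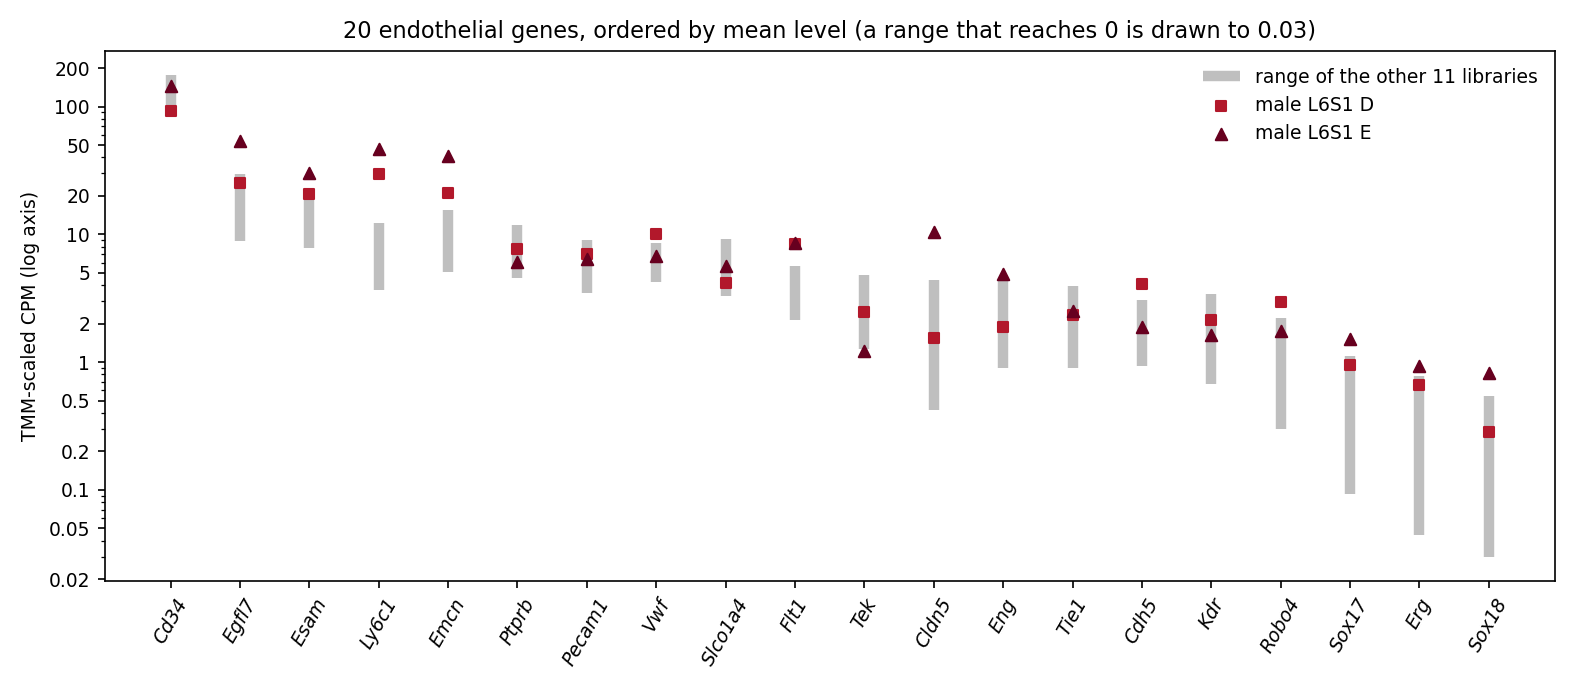
TMM-scaled CPM (log axis) of 20 endothelial genes in male L6S1 D (squares) and E (triangles), with grey bars for the range of the other 11 libraries. Both symbols lie above the bar for Ly6c1, Emcn, Esam and Flt1, and both lie within it for Pecam1, Kdr, Tie1, Ptprb, Slco1a4 and Cd34.

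Of 30 genes of the Ly6/uPAR family 12 were tested, and 1 passed in males (Ly6a, selected for this difference), none in females. The highest by mean CPM were Cd59a, which guards cells against complement, with 374 and 488 CPM in D and E against 192 to 468 CPM in the other 11, and the nicotinic receptor modulator Lynx1, with 65.1 and 41.3 CPM against 41.8 to 134 CPM. Neither was above all other libraries in both. Gpihbp1, which carries lipoprotein lipase across capillary endothelium, was, with 14.9 and 22.5 CPM in D and E against 0.838 to 3.79 CPM, and had a log2 fold change of 2.89 (SE 0.78, edgeR adjusted p = 0.137) in males. The family's median log2 fold change was 0.64 in males and -0.11 in females.

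Of 15 angiopoietin and VEGF genes 13 were tested, and 1 passed in males (Angpt4, selected for this difference), none in females, with medians of 0.05 and -0.15. Angpt2, the paralogous ligand, held 9.76 and 9.06 CPM in D and E, against 6.59 to 14.2 CPM in the other 11, with a log2 fold change of 0.05 (SE 0.29) in males. Angpt1 held 0.330 and 0.117 CPM in D and E, against 0.109 to 1.37 CPM. The semaphorin and VEGF co-receptor Nrp1 was lower in D and E (51.3 and 22.0 CPM) than in the other 11 (60.8 to 200.2 CPM). Of the 3 angiopoietins tested, Angpt4 alone exceeded all 11 in both D and E.

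The 4 tested of 9 fatty acid binding protein genes each exceeded all 11 remaining libraries in D and in E, and none passed between the levels in males or in females. Fabp7, a protein of glia, held 549 and 607 CPM in D and E against 113 to 258 CPM in the other 11, Fabp5 held 257 and 312 CPM against 71.0 to 95.2 CPM, and Fabp3 held 38.6 and 41.4 CPM against 9.82 to 18.0 CPM. The adipocyte markers Adipoq, Plin1, Cidec and Lep held at most 0.203 CPM in any library. Lpl, which other cells also express, held 1.13 to 4.08 CPM over all libraries, and Pparg reached 1.35 CPM in E. Cd36, shared by adipocytes and capillaries, was at 0 in D and E.

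Of 25 tested interferon-induced genes none passed, with a median log2 fold change of 0.43 in males and -0.33 in females. The highest by mean CPM, the class I antigen-presenting genes H2-D1 and B2m, held 160.1 and 619 CPM in D and 478 and 479 CPM in E. The list split in these libraries. Isg15, Bst2, Ifi27l2a, Xaf1, Psmb8 and H2-K1 were above the other 11 libraries in both, while Ifit1, Ifit2, Stat2, Oasl2, Ifi44 and Gbp3 were among those below them in both. Oasl2, an oligoadenylate synthetase-like protein, held 70.1 and 74.3 CPM in D and E, against 80.6 to 126.0 CPM in the other 11, while Ly6e held 110.1 and 148 CPM, against 18.6 to 50.8 CPM.

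Markers of other cells were read beside these values, and their part in them was not tested. The 12 sensory neuron markers summed to 13231 to 16572 CPM in male L6S1, against 11548 to 12500.4 CPM in male L345, and 10556 to 12856 CPM in female L6S1, against 11338 to 12935 CPM in female L345. The members did not move together, and Tubb3 had the highest mean CPM. In both D and E, 2 of 12 (Uchl1 and Prph) were above the other 11 libraries, beside 17.8% of all genes tested. Below the other 11 in both were 5 of 12 (Ret, Scn10a, Pou4f1, Gfra2 and Mrgprd). The share of all genes below them in both was not computed. The median log2 fold change of the 12 in males was -0.28. The 12 immune markers summed to 6.85 to 21.3 CPM in male L6S1, against 4.62 to 7.96 CPM in male L345, with 6.88 to 7.76 CPM in female L6S1 and 5.17 to 8.91 CPM in female L345. Ptprc, C1qa, C1qc and Cd3e, which define leukocyte classes, held at most 0.744 CPM in any library. The B-cell marker Cd79a held 3.72 and 3.39 CPM in D and E, against at most 1.70 CPM in the other 11, and Aif1 and Mrc1 reached 1.87 and 2.60 CPM in their highest library. S100a8, a neutrophil marker, held 2.31 CPM in D and was highest in E. C1qb alone of the 5 tested immune markers passed in males (edgeR log2 fold change 2.66, SE 0.48, adjusted p = 0.0315), with 7.02 and 10.7 CPM in D and E.

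Glial markers summed to 1102 to 5922 CPM in male L6S1, against 1395 to 1575 CPM in male L345, with Apoe at 4985 CPM in E. Fibroblast markers summed to 145 to 590 CPM in male L6S1, against 83.6 to 156 CPM in male L345, and to 197 to 441 CPM in female L6S1, against 114 to 231 CPM in female L345, nearly all of it Dcn (257 and 570 CPM in D and E). Mural markers summed to 143 to 351 CPM in male L6S1, against 250.9 to 449.7 CPM in male L345. Red blood cell markers summed to 2.26 to 8.25 CPM in male L6S1, against 0.465 to 10.2 CPM in male L345. Of the lymphatic endothelial markers Pdpn and Ccl21a were at 0 in every library. No marker of these lists passed between the levels in males.

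The genes most like Ly6a over the 13 libraries, by Pearson r of log2 CPM among 12266 genes with a mean of at least 1 CPM, were Hdhd2 (r 0.967, and 0.882 without D and E), Ing4 (0.962 and 0.864), Ly6e (0.958 and 0.857), Ttll9 (0.958 and 0.852) and Ftsj1 (0.958 and 0.840). Ly6e was the only vascular or Ly6 gene among them. Those most like Angpt4 were Pnck (r 0.965, and 0.872 without D and E), Hpca (0.964 and 0.927), Rab3b (0.963 and 0.902), Lrpap1 (0.955 and 0.897) and Rpa2 (0.954 and 0.840). Hpca and Rab3b encode proteins of neurons, a calcium sensor and a vesicle GTPase. Those most like Fabp4 were Ang (r 0.888), Nmral1 (0.864), Lyrm1 (0.854), Asf1a (0.850) and Zfp389 (0.844). None of the 5 endothelial markers was among the 5 most like any of these 3 genes.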

How the data were processed

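RNA from sorted cells was amplified with a SMARTer ultra-low-input kit from 10 ng, per the labels' protocols, and 13 libraries were sequenced. The deposited tables give, per gene, raw read counts, CPM and RPKM. The counts were made with Subread featureCounts 1.4.5 on GRCm38.p2, per the submitters' processing notes, which for female libraries also list STAR 2.0.4b, Salmon and mm10. The deposited CPM and RPKM were recomputed from the deposited counts and matched within 5.21e-14 (relative difference). How strand was treated is not given in the sources used here; no exon of the 10 genes overlaps another gene. Of 41388 gene IDs, 40254 had a symbol in the table used, and the rest held 0.109% of counts.

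Counts were fitted with edgeR 4.0.16 (robust quasi-likelihood, filterByExpr, TMM, 4 group means, Benjamini-Hochberg over 15406 genes). SE is the size of the log2 fold change divided by the square root of F. Alternatives were DESeq2 1.42.0, limma 3.58.1 voom, RLE factors, library totals, other filters, the replicate letter as a block, and libraries left out. Letters counted as pairs because same-letter libraries deviated together in all 4 pairs (r 0.520, 0.203 and 0.488 in females, 0.101 in males), a pairing read from the data and not stated in the labels. The highest r between different letters was 0.252 for female B and 0.203 for male A, above their same-letter r. Correlations used log2 CPM with a prior count of 0.5 and 100000 permutations, exact for 7 or fewer libraries. The members, lists and tests were chosen with earlier results of these data known. All 10 genes are named, of each list up to 4 with the highest mean CPM, and the genes most like Ly6a, Angpt4 and Fabp4; other genes named from the lists were picked after their values were seen. The fit was tested on simulated counts. No 2 libraries were copies: at least 98.6% of genes differed between any pair.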

Additional observations from a re-analysis of the deposited data

How the results depend on the processing

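Of 1040 recomputed fold changes of the 10 genes 56 changed sign, none of them a called value, and 59 moved by over 1 SE. The count of the 10 genes called in males was 2. It was 5 with DESeq2 (3.36% of all genes), 4 without a filter (0.981%) and 1 with limma voom (0.110%). It was 0 without D and E (0.122%), and 0 to 5 leaving out 1 library (0.0253% to 20.5%). Averaged over the sexes it was 1, and 2 with DESeq2 (0.706%), 2 without a filter (0.535%) and 0 with voom (0.383%). It was also 0 without D and E (0.476%), and 0 to 1 leaving out 1 library (0.177% to 0.843%). With the replicate block (8 libraries, pairing by letter within a sex) it was 0 in males and 0 averaged. The block changed no other call, and gave no value for male against female, since letters are nested in sex. The interaction count was 0, and 1 (Ly6a) without a filter. In females and between the sexes it was 0 under every alternative run. By Pearson r, correlated pairs numbered 6, and 1 without D and E, 1 within females, and 6 to 7 under the other alternatives. The cause of these changes was not tested. Low counts limit Fabp4, Cldn5, Kdr and Cdh5, and also Angpt4 in the L345 libraries (11 to 35 counts). The SEs hold the spread between pools, and the limit of 3 counts covers counting error only.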
